A study of Caenorhabditis elegans with 2 samples.

Results

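The small nuclear RNA (snRNA) genes of Caenorhabditis elegans were examined for sites recovered through a tagged DAF-8 protein. They were taken as all Ensembl genes of biotype snRNA on the WBcel235 assembly whose names do not begin with sls-, which gave 99 genes of 46890 annotated nuclear genes. The 30 sls- genes, which encode spliced leader RNAs, were left to the comparison. Each snRNA gene was given the strongest peak whose summit, the base of highest signal, lay within 200 bp of the gene. The rule itself uses no measured value, though this set of genes was singled out with earlier results of these data known.

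Chromatin immunoprecipitation with sequencing (ChIP-seq) was done on whole fourth-stage (L4) larvae of strain OP790 at 47 hours, synchronised by starving hatchlings after bleaching. All worms carried the integrated transgene wgIs790, in which daf-8 is fused to TY1, EGFP and 3xFLAG tags alongside unc-119(+), in an unc-119(tm4063) background, and an antibody against green fluorescent protein was used for the precipitation. The data form 1 group of 2 biological replicates that share strain, stage and antibody. Neither untagged worms nor an input library were analysed here, and the lists give no read counts, so depth is unknown.

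DAF-8 is a SMAD transcription factor downstream of the TGF-beta ligand DAF-7, and it takes part in the choice between growth and the dauer resting stage. The spliceosomal snRNAs U1, U2, U4, U5 and U6 form, with proteins, the particles that recognise splice sites and remove introns, and SmY RNAs are small nematode RNAs linked to spliced leader trans-splicing. Genes of this kind have compact promoters: an upstream proximal sequence element is bound by the SNAPc complex, RNA polymerase II transcribes most of them, and RNA polymerase III transcribes U6 genes, whose promoters also hold a TATA box. The annotation does not say which U RNA a gene encodes, so the genes were grouped by their sequence alone and the groups are called U1-type and so on from short runs known from these RNAs.

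Of the 99 genes, 5 had a summit in the thresholded true-replicate list, that is, among the peaks the authors kept at an irreproducible discovery rate (IDR, an estimate of the share of peaks that do not repeat) of at most 0.01. They were W05B2.8 and F54D8.7 of the U6-type group, sup-6 and F08H9.10 of the U1-type group, and M163.13, which grouped with no other gene. The gene sequences of sup-6 and M163.13 show how far apart these RNAs are. Capitals mark CTTACCT in sup-6, the run by which U1 pairs with the 5′ splice site, while M163.13 did not hold it and is printed without capitals.
sup-6: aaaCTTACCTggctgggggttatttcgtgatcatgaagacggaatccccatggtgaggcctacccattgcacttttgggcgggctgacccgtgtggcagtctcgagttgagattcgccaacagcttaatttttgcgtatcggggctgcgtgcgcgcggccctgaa
M163.13: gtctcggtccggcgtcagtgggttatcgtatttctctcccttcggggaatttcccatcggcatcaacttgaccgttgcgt

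The 80 bases before these genes are shown next, 5′ to 3′ along each gene's strand, because 4 of the 5 genes had a thresholded summit within 20 bp of the first base. Capitals mark letters that match a run derived from the U1-type genes, given in pieces as GCGGAANCC, NCNAN and ATGTC, and the TATA letters TATATAA; where the run was matched with more than 5 mismatches, the letters TGTC alone are marked. C28A5.7 and R07E5.16 are the U6-type genes just outside the threshold, T08G5.11 is a U1-type gene with a weaker peak, F11A5.14 is a U2-type gene, and F32D1.12 is a U6-type copy with no peak.
W05B2.8: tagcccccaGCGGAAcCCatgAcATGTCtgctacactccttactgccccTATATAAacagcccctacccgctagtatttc
F54D8.7: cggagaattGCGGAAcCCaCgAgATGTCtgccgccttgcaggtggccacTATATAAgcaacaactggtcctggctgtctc
M163.13: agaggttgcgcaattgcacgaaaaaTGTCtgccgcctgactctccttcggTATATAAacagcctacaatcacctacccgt
sup-6: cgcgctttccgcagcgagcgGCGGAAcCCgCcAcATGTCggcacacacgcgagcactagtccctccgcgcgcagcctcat
F08H9.10: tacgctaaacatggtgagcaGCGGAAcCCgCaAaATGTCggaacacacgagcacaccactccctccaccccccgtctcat
C28A5.7: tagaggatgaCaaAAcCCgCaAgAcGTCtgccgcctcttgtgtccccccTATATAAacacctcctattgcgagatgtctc
R07E5.16: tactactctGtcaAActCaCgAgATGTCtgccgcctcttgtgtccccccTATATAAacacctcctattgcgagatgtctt
T08G5.11: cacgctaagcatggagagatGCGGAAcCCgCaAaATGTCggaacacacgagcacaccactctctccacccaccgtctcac
F11A5.14: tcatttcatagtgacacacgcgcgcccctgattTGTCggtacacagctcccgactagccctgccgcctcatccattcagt
F32D1.12: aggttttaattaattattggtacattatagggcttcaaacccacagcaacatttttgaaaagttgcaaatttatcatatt

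These windows, read from the RefSeq genome of the WBcel235 assembly (called ce11 in the file names), are chrIII:10989599-10989678 on the plus strand for W05B2.8, chrIII:5080899-5080978 on the minus strand for F54D8.7, chrX:14476787-14476866 on the plus strand for M163.13, chrII:12944968-12945047 on the minus strand for sup-6 and chrV:14463353-14463432 on the minus strand for F08H9.10. Those of the genes without a thresholded peak are chrIII:4426956-4427035 on the minus strand for C28A5.7, chrIII:4414105-4414184 on the plus strand for R07E5.16, chrV:14028636-14028715 on the minus strand for T08G5.11, chrV:16225888-16225967 on the minus strand for F11A5.14 and chrV:4354360-4354439 on the plus strand for F32D1.12. Many copies carry the same Ensembl name, so RefSeq locus names joined by WormBase gene ID are used: W05B2.8 (WBGene00014543) and C28A5.7 (WBGene00014266) are both called R07E5.16 in Ensembl, and R07E5.16 here is WBGene00014484 alone.

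A thresholded summit lay within 200 bp of 5.05% of the 99 snRNA genes (95% Wilson interval 2.18 to 11.3%), against 0.682% of the 46791 other annotated genes (0.611 to 0.760%). The share over all annotated genes was 0.691%. Small RNA classes differed among themselves. The count was 3 of 30 sls- genes (a share with an interval of 3.46 to 25.6%). The share was 9.97% of 612 tRNA genes (7.84 to 12.6%) and 7.23% of 346 snoRNA genes (4.94 to 10.4%). By contrast, 0 of 261 miRNA genes (up to 1.15% by 3 counts) and 3 of 15363 piRNA genes (0.0195%) had a thresholded summit. The 0 of 20 rRNA genes shows no such difference, because its interval reached 16.1% and covered those of the snRNA, tRNA and snoRNA genes. The snRNA interval overlapped those of the sls-, tRNA and snoRNA genes and lay above those of protein-coding genes (0.671%, 0.567 to 0.794%) and of genes of biotype ncRNA (1.12%, 0.909 to 1.38%). The intervals cover counting error over genes only, genes of a family share sequence, and the difference was not tested.

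**Figure D1:**
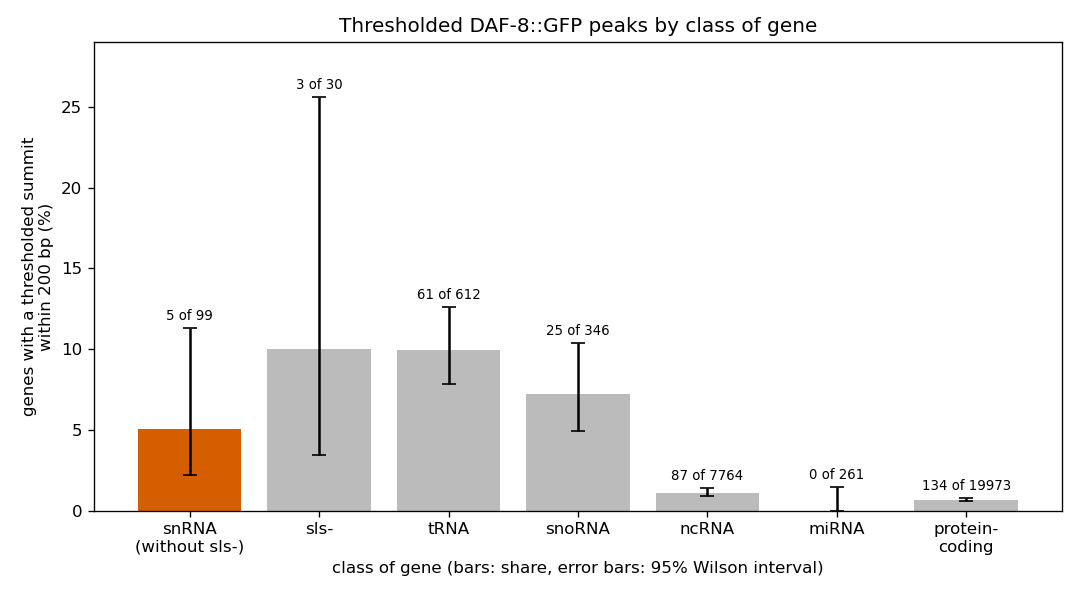
Share of genes with a thresholded DAF-8::GFP summit within 200 bp, by class of gene, with 95% Wilson intervals as error bars and the counts above them. The 99 snRNA genes stand at 5.05%, below the 9.97% of tRNA genes and the 7.23% of snoRNA genes with overlapping intervals, while protein-coding genes stand at 0.671%.

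Weak peaks did not set the snRNA genes apart in the same way. A ranked peak of any strength lay within 200 bp of 65 of the 99 snRNA genes, or 65.7%, against 58.3% of all annotated genes, 87.6% of tRNA genes and 66.5% of snoRNA genes. The strongest peak at those 65 genes had a median signal of 24.4 (quartiles 17.9 and 35.2, highest 113), against 24.8 at the other annotated genes with a peak (17.9 and 32.5, highest 215). The median and the lower quartile were thus close to those of the other annotated genes, which were not matched for length. Median length was 121 bp for snRNA genes. It was 21.0 bp for piRNA genes, of which 17.1% had a ranked peak, and 2027 bp for protein-coding genes, of which 87.0% had one. Signal here is the authors' value per peak in the list that compares the true replicates, and its scaling is unknown here. At a looser IDR of 0.05 the count was 8 of 99 snRNA genes, against 1.93% of all annotated genes.

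W05B2.8 (chromosome III, 10989679 to 10989780, plus strand, in an intron of the dynein heavy chain gene dhc-4 and on the same strand) had the strongest peak of any snRNA gene, with a signal of 113 at an IDR of 0.000514. It was rank 29 of the 101032 ranked peaks. In the 2 compared lists, 1 from each replicate, its signal was 44.6 and 63.8, a mean of 54.2 ± 13.6 (SD, n = 2). The summit lay 131 bp from the first base along the strand, beyond the end of the 102 bp gene, unlike the summits of the next 3 genes.

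sup-6 (chromosome II, 12944803 to 12944967, minus strand, in an intron of F58G1.7 and on the same strand) had a signal of 84.8, an IDR of 0.00137 and rank 75. Its compared lists gave 49.2 and 38.3 (43.7 ± 7.69, SD, n = 2), and its summit lay at −12 bp. F54D8.7 (chromosome III, 5080798 to 5080898, minus strand, outside protein-coding genes) had a signal of 82.9, an IDR of 0.00181 and rank 83. Its lists gave 33.9 and 55.3 (44.6 ± 15.1, SD, n = 2), and its summit lay at −19 bp. The list signals of sup-6 and F54D8.7 overlapped, and 2 replicates do not put these genes in order.

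M163.13 (chromosome X, 14476867 to 14476946, plus strand, outside protein-coding genes) had a signal of 70.1 at an IDR of 0.00392, with 33.0 and 36.4 in the compared lists (34.7 ± 2.42, SD, n = 2). Its summit lay at −10 bp, and every 50-base stretch of the gene and its flanks occurs once in the genome. F08H9.10 (chromosome V, 14463188 to 14463352, minus strand, overlapping an exon of hsp-16.20 on the same strand) had a signal of 59.5 at an IDR of 0.00474. Its lists gave 44.2 and 28.9 (36.5 ± 10.9, SD, n = 2). This peak had its summit at 198 bp, past the gene's end and 184 bp from the start of hsp-16.20. A second thresholded peak with a signal of 11.8 had its summit at −8 bp and carried the same list signals, so at this gene the call may belong to either neighbour and they cannot be told apart.

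The members around the threshold differed little in signal. Inside it stood F08H9.10 at 59.5. Outside it stood C28A5.7 with a signal of 57.7 at an IDR of 0.0206, R07E5.16 with 57.3 and 0.0152, and F32B5.9, a U5-type gene, with 48.7 and 0.0352. Their lists gave 29.3 and 26.0 for C28A5.7, 34.8 and 25.5 for R07E5.16, and 25.9 and 25.2 for F32B5.9. R07E5.16 passed in the pooled list at an IDR of 0.0075.

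Each replicate alone called fewer genes, from a shorter thresholded list. The lists of replicates 1 and 2 kept 62 and 77 peaks in all, against 240 in the true-replicate list. In its own list replicate 1 kept only sup-6, with a signal of 49.2 at an IDR of 0.00444, and replicate 2 kept W05B2.8 (63.8, IDR 0.000924) and F54D8.7 (55.3, IDR 0.00137). W05B2.8 missed the threshold narrowly in replicate 1, with 44.6 and an IDR of 0.0107. sup-6 had 38.3 and an IDR of 0.596 in replicate 2, F54D8.7 had 33.9 and 0.137 in replicate 1, and M163.13 had 0.156 in replicate 1 and 0.256 in replicate 2. F08H9.10 had an IDR of 0.173 in replicate 1, 0.544 in replicate 2 and 0.262 in the pooled list. No snRNA gene therefore passed in both replicates alone, and F08H9.10 passed in the true-replicate list only. The pooled list kept 5 genes, of which 4 were among the 5 of the true-replicate list.

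Across the 63 distinct strongest peaks at snRNA genes, Spearman's rho between the 2 compared lists was 0.374 and Pearson's r of the log2 signals was 0.493, given as a description. Over all 101032 ranked peaks the values were 0.165 and 0.174. The points share libraries and were paired by the ranking itself. The first list was higher at 28 of the 63 peaks and the second at 35, so neither replicate was uniformly stronger at these genes. By identical coordinates and signal, 52.7% of first-list entries occur in the list of replicate 1 and none in that of replicate 2, and 49.4% of second-list entries occur in the list of replicate 2 and none in that of replicate 1.

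**Figure D2:**
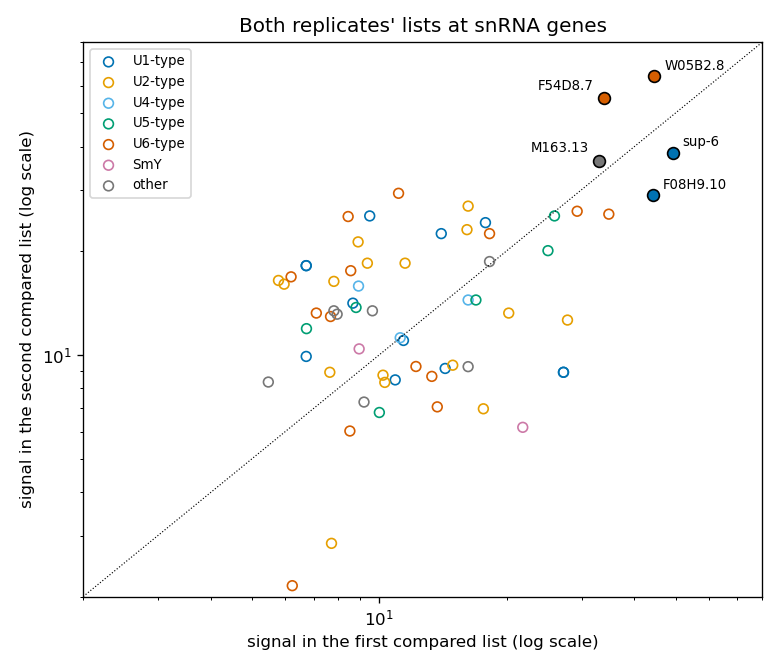
Signal of the strongest peak at each snRNA gene in the first (x) and second (y) compared list, both on log axes, coloured by family, with thresholded genes filled and named and the line of equality dotted. The 5 thresholded genes had 33.0 to 49.2 in the first list and 28.9 to 63.8 in the second, and sit at the upper right of the cloud.

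By sequence (families joined at 70% identity over the longer gene, with entries inside another gene put in its family), the 99 genes fell into 14 U1-type, 19 U2-type, 5 U4-type, 12 U5-type and 24 U6-type genes, 10 SmY genes, a group of 7 around B0213.21, a pair, F20D1.21 and F35B3.10, and 6 genes with no relative. All 14 U1-type genes had a ranked peak, against 16 of 19 U2-type, 3 of 5 U4-type, 6 of 12 U5-type and 16 of 24 U6-type genes. Of the 10 SmY genes 2 had a ranked peak, against 5 in the pooled list. The U5-type count also rose in the pooled list, to 10 of 12, while the counts of the other U-type groups stayed the same. Of the 14 U1-type entries, 2 lie inside another and share its peak, so their 14 peaks are counted over 12 separate genes: mir-1831, which carries the snRNA biotype despite its name, inside sup-39, and T27E4.22 inside T27E4.12.

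U1 RNA recognises the 5′ splice site at the start of spliceosome assembly. The 14 U1-type genes had signals of 15.6 at the lowest, 28.9 at the median and 84.8 at the highest. After sup-6 and F08H9.10 came sup-39, known as a U1 gene from splicing suppressor mutations, with a signal of 47.0 at an IDR of 0.594. Its compared lists gave 27.2 and 8.90 (18.1 ± 13.0, SD, n = 2). These are the entries paired by the ranking; the strongest peak near sup-39 in the list of replicate 2 alone had 19.9. F40G12.13 and F40G12.14, neighbouring copies on chromosome V, both had 35.2. F08H9.11, next to F08H9.10, had 19.1, and T27E4.10, T27E4.11 and T27E4.12 had 15.6, 24.4 and 19.6. U1-type genes, of which pairs shared a median identity of 95.2%, thus ran from 15.6 to 84.8 in signal.

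U2 RNA pairs with the branch point, and its genes carry GTAGTA, found in 18 of the 19 U2-type genes. They had no thresholded peak in the true-replicate list, and their signals ran from 4.60 through a median of 29.1 to 46.0. The highest were C47F8.9 with 46.0, F11A5.14 with 40.5 and Y54G9A.8 with 39.0. The compared lists gave 27.8 and 12.6 for C47F8.9 (20.2 ± 10.7, SD, n = 2), 16.2 and 26.9 for F11A5.14 (21.5 ± 7.55), and 16.1 and 23.0 for Y54G9A.8 (19.6 ± 4.87). F11A5.14 and Y54G9A.8 had no peak in the ranked list of replicate 1. The 3 U2-type genes without a peak were F08G2.9, F15H9.5 and F15H9.6, and for the last 2, whose sequence occurs at 1 other place each, no 50-base stretch within 200 bp is unique in the genome.

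U4 and U5 RNAs join U6 in the tri-snRNP, where U4 holds U6 inactive and the loop of U5 aligns the exons. The U4-type genes C52E4.8, K03B8.10 and T11F9.16 had 31.4, 24.7 and 21.4, and T11F9.15 and F10D2.13 had no peak. Of the U5-type genes, F32B5.9 led with 48.7, followed by ZK897.2 with 29.9, F38E11.10 with 26.0 and ZK897.4 with 24.4. F07C6.5 was among the 6 U5-type genes with no peak in the true-replicate list. In the pooled list 10 of the 12 U5-type genes had a ranked peak. Y69A2AR.36, another of those 6, had 32.1 there and 30.1 in the list of replicate 2 alone. Of these U4-type and U5-type genes, F32B5.9 alone reached an IDR of 0.05.

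U6 RNA sits at the catalytic centre of the spliceosome. The 24 U6-type genes held the highest and the lowest signal of an snRNA gene, W05B2.8 with 113 and K09B11.11 with 2.72, around a median of 23.2. The compared lists gave 7.67 and 12.9 for K09B11.11. They were lower, 6.23 and 2.15, for Y17G9A.90, which had a signal of 11.7, so the lowest place depends on the measure. T08B6.62 had 41.3, with 18.2 and 22.4 in the compared lists (20.3 ± 2.97, SD, n = 2), and K09C6.12 had 40.9, with 11.1 and 29.3 (20.2 ± 12.9). F54C8.8 had 36.5. The 6 copies in introns of mam-3 had 25.8 at K09B11.12, 20.6 at K09B11.14, 15.3 at K09B11.13, 2.72 at K09B11.11 and no peak at K09B11.15 and K09B11.16. W05B2.8 and F54D8.7 lie on another chromosome than that cluster, as do C28A5.7 and R07E5.16.

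Repeated sequence limits where reads can be placed. In the U2-type and the U6-type genes alike the median share of 50-base stretches inside the gene that occur once in the genome was 0, and within 200 bp of the gene it was 62.3% for U2-type and 83.4% for U6-type genes. Among the U6-type genes the whole sequence of 17 of 24 occurs at 16 other places in the genome, W05B2.8 and F54D8.7 included, and no 50-base stretch inside W05B2.8 or F54D8.7 is unique. Their flanks are distinct: within 200 bp of W05B2.8, 87.2% of 50-base stretches occur once, and 86.3% near F54D8.7. The shares near the K09B11 copies had a median of 58.7%. Over all snRNA genes the median was 84.5%, over the 34 genes with no peak 91.5%, and over the 5 thresholded genes 87.2%. Read length and the handling of reads with several matches are unknown here, and their part in the signals was not tested.

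In the true-replicate list, the remaining groups had signals of at most 34.3 apart from M163.13. Of the 10 SmY genes, smy-8 had 21.6 and smy-11 had 19.2, and smy-1 was among the 8 without a peak, although it had 17.9 in the list of replicate 2 alone. In the pooled list smy-10 had 25.5. The group of 7 around B0213.21, of which 6 overlap exons of cyp-34A cytochrome P450 genes on chromosome V, had B0213.22 with 18.3 as its highest and B0213.23 with no peak. F35B3.10 had 12.1 and its relative F20D1.21 none. Among the 6 genes with no relative, M163.13 had 70.1, W07G1.24 had 34.3 with an IDR of 0.233, and the other 4, C35D6.6 among them, had no peak.

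**Figure D3:**
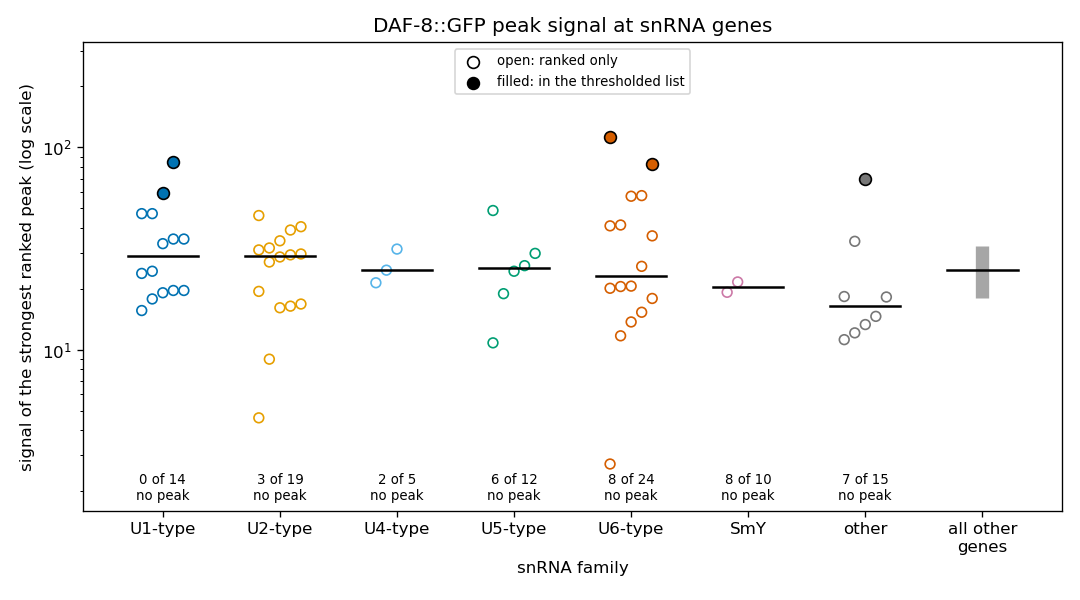
Signal of the strongest ranked peak (log axis) at each snRNA gene by family, filled where the peak is in the thresholded list, with the family median as a line and the number of genes with no peak below. The grey bar shows the quartiles, 17.9 and 32.5, and the line the median, 24.8, of all other genes with a peak; family medians of the U1-type to U6-type genes lay between 23.2 and 29.1.

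Summits spread over the whole window. The median distance from the first base along the strand was 51.0 bp (quartiles −10 and 146, range −197 to 298), in a window that runs from 200 bp before to 200 bp after each gene. Of the 65 summits, 20 lay upstream, 29 inside and 16 downstream. Among the 14 U1-type genes the median was 114 bp and 1 summit, that of sup-6, lay upstream, while among the 16 U2-type genes with a peak it was 11.0 bp and 7 lay upstream. Of the 5 thresholded genes, 3 had the strongest summit just upstream, between −19 and −10 bp, and none had it inside the gene.

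**Figure D4:**
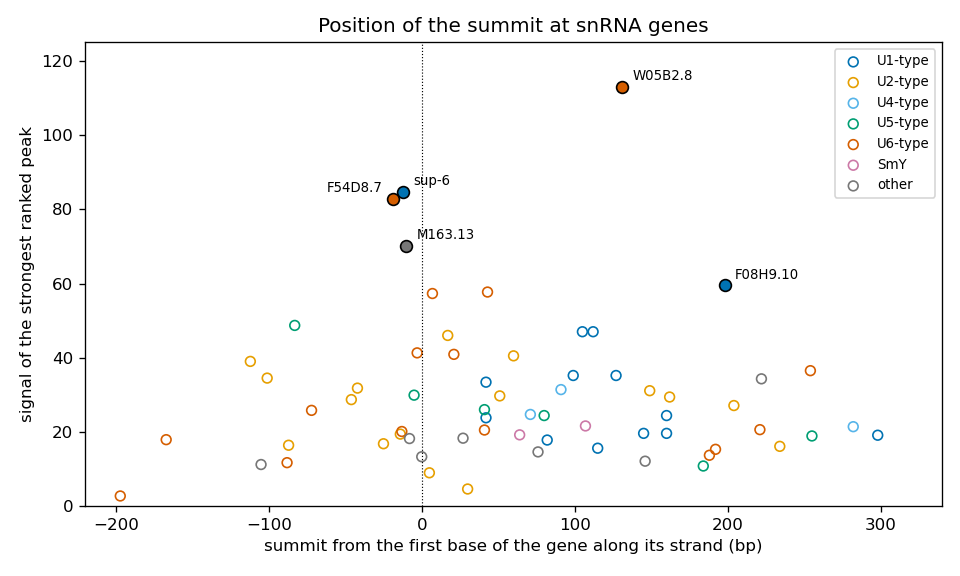
Signal of the strongest ranked peak against the distance of its summit from the first base of the snRNA gene along its strand, coloured by family, with thresholded genes filled and named. sup-6, F54D8.7 and M163.13 stand together at −19 to −10 bp, W05B2.8 at 131 bp and F08H9.10 at 198 bp.

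The upstream letters set the U6-type matches apart by position, while those of the other matching families began close together. The 2 U1-type entries that lie inside another gene are left out of this statement. The run derived from the U1-type genes has 15 set letters over 19 bases, each shared by at least 80% of 12 U1-type genes. Matches with at most 3 mismatches, starting from −75 to −55 bp on the gene's strand, occurred before 41 of the 99 snRNA genes (41.4%), against 7 of 30 sls- genes (23.3%), 29 of 346 snoRNA genes (8.38%), 0 of 612 tRNA genes and 3 of 19973 protein-coding genes (0.0150%). The U1-type genes themselves supplied the run, so their 14 matches are no finding; without them, 27 of 85 genes matched. All 5 U4-type, 11 of 12 U5-type and 6 of 10 SmY genes matched, while the U2-type genes matched at 5 to 8 mismatches and kept TGTC, the 4 last letters of the run, at −47 bp in 18 of 19. TGTC with a start from −57 to −44 bp preceded 61.6% of snRNA genes, against 83.3% of sls- and 5.08% of protein-coding genes. This share includes the U1-type genes that supplied the run. Without them, TGTC preceded 49 of 85 snRNA genes.

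The match of the 5 U4-type genes began at −63 bp and those of the 11 U5-type genes from −63 to −60 bp. Those of the 6 SmY genes began from −63 to −57 bp and those of the 5 U6-type genes at −71 bp. TATATAA, searched on the gene's strand with starts from −40 to −20 bp, occurred before 15 of the 24 U6-type genes and before M163.13, and before no other snRNA gene, against 1.05% of protein-coding genes. Both features together preceded 4 genes, W05B2.8, F54D8.7, T08B6.62 and Y17G9A.85, and no tRNA, snoRNA or protein-coding gene. Their signals were 113, 82.9, 41.3 and 17.9. The shared promoter letters were thus present at genes with the strongest peak and at genes with weak ones.

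Of the 15 U6-type genes with TATATAA, 11 had a ranked peak with a median signal of 40.9, and both thresholded U6-type genes and the 2 just outside the threshold were among them. Of the 9 U6-type genes without it, 5 had a ranked peak with a median of 20.1 and none was thresholded. F32D1.12, which has neither run in its window and no peak, is the contrast printed with the sequences. The ranges overlapped, from 2.72 to 113 with these letters and from 11.7 to 36.5 without, and this split was chosen after the values were seen.

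GTCT, the short core that SMAD proteins recognise, overlaps the end of the run where TGTC is followed by T. The 7 letters GTCTGCC, searched on both strands in the 80 bases because they recur in the printed windows, most of which were picked for a strong peak, occurred before 5 snRNA genes (5.05%): F54D8.7, M163.13, C28A5.7, R07E5.16 and K09C6.12. Of these 5, K09C6.12 alone is not among the printed windows, so the signals of the other 4 follow from the choice; K09C6.12 had 40.9. The share was 1.14% of tRNA, 0.578% of snoRNA and 0.270% of protein-coding genes. GTCT or its reverse complement AGAC alone occurred before 37 of the 99 snRNA genes (37.4%), against 30.2% of protein-coding and 47.9% of tRNA genes. A match describes letters and is not a bound site.

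**Figure D5:**
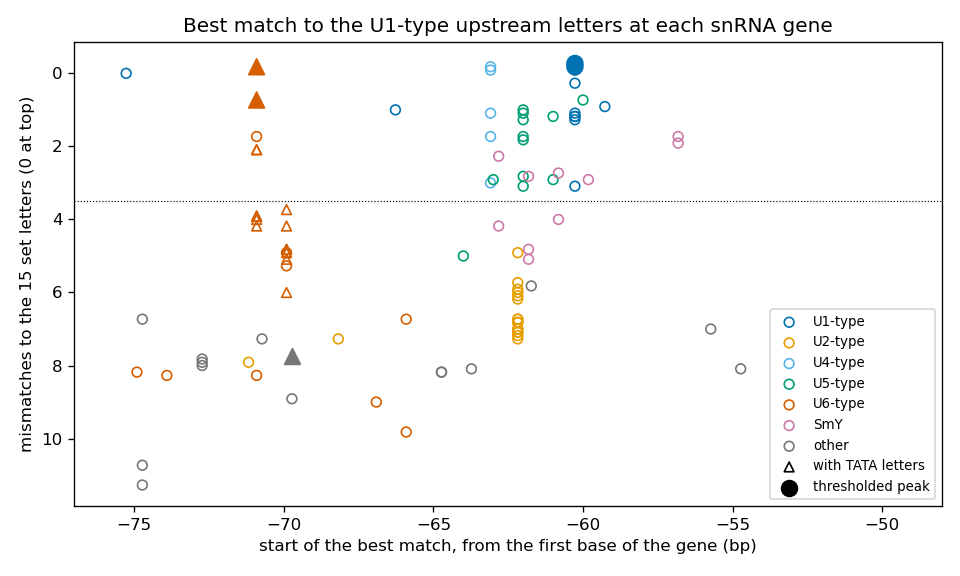
Best match to the run derived from the U1-type genes before each snRNA gene: its start relative to the first base of the gene (x) and its mismatches out of 15 set letters (y, 0 at the top), with small offsets so that points do not overlap; triangles carry TATATAA, large filled marks have a thresholded peak, and the dotted line divides 3 from 4 mismatches. Among matches with at most 3 mismatches, those of U6-type genes start at −71 bp. Those of U4-type and U5-type genes start from −63 to −60 bp and those of SmY genes from −63 to −57 bp. Those of U1-type genes start near −60 bp, apart from the 2 entries that lie inside another gene.

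By location, 48 of the 99 genes lay in introns of protein-coding genes, 39 outside them and 12 overlapped their exons. A ranked peak was found at 26 of 48 in introns, 31 of 39 outside and 8 of 12 at exons, with 2, 2 and 1 thresholded genes. The median signals were 29.2, 24.4 and 16.4. By chromosome, III had 7 snRNA genes, all of U6 type, with a peak at 6 of them, a median of 57.5 and 2 thresholded genes. Chromosome IV had 36, with a peak at 17, a median of 19.2 and no thresholded gene, and chromosome I had 12, with a peak at 10, a median of 24.4 and none thresholded. Thresholded genes lay on II, III, V and X.

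The proteins that make, assemble or work with these RNAs were looked at through their promoters, from 1000 bp upstream to 250 bp downstream of a transcript start. Of 72 such genes listed by name, 56 were found in the annotation. None of these 56 genes had a thresholded summit in its promoter. This allows a share of up to 5.36% (3 counts of 56), against 0.496% of 19973 protein-coding genes. A ranked summit lay in 49 of the 56 promoters, or 87.5%, against 77.2% of protein-coding genes, and the median signal was 24.8, against 22.6. The counts with a ranked summit were 7 of 7 Sm protein genes, whose ring binds U1, U2, U4 and U5 RNA, 8 of 8 LSm genes, 6 of 8 SNAPc genes and 11 of 11 Integrator genes, whose complex cleaves the 3′ ends of snRNAs. They were 14 of 18 genes of snRNP proteins or of the splicing factor U2AF (uaf-1 and uaf-2), 2 of 2 genes of TBP and the TFIIIB subunit BRF, and 1 of 2 assembly factors.

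The 3 partner genes at an IDR of 0.05 were ints-4 with a signal of 64.8 at an IDR of 0.0147, snpc-3.4, named for a SNAPc subunit, with 58.1 and 0.0252, and ints-8 with 53.0 and 0.0305. The share of all protein-coding genes at an IDR of 0.05 in this promoter window is not available here. The count of 3 therefore has no background beside it, and the 0.496% belongs to the stricter thresholded list. snr-2, an Sm gene, followed with 44.9 and an IDR of 0.108. ints-4 also passed in the pooled list. At the share of 0.496% over all protein-coding genes, a set of 56 can easily hold no thresholded gene. The count of 0 in the true-replicate list therefore does not set the partner genes apart from other protein-coding genes.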

How the data were processed

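The lists were deposited by the authors as ChIP-seq peaks on ce11, per the labels and file names. The signal per peak and the −log10 of the IDR are values as deposited by the authors; the sources used here name no aligner, peak caller, read length or scaling. Ranked and thresholded lists exist for each replicate, for the pooled reads and for the true replicates; the true-replicate lists were used. The highest IDR kept was 0.00997.

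Genes came from Ensembl release 115, names and sequence from RefSeq, both for WBcel235, and every peak ended within its chromosome. Summits were assigned to genes within 200 bp with Python 3.11.15 and pandas, checked on simulated peaks. Families used global alignment in Biopython. Coordinates count from 1. Genes were named by rule: those thresholded in any list, the 15 strongest, the 3 just outside the threshold, and per family the strongest and 1 without a peak; other genes were named after their values were seen. The snRNA genes and lists were chosen with earlier results of these data known, so no test was run. Nothing shows whether the replicates came from separate cultures. The gene sequence of the U6-type copies is not reported here.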

Additional observations from a re-analysis of the deposited data

How the results depend on the processing

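No paired analysis was possible because there is 1 group. The count of 5 thresholded snRNA genes was 5 within 100 bp or 500 bp, in the pooled list and with the left-out peaks that pass the threshold. It was 0 for summits inside the gene, 2 when each peak counted only for its nearest gene and 3 among genes with no identical copy. It was 1 at an IDR of 0.001, 8 at 0.05, and from 1 to 2 in each replicate alone, whose thresholded lists are shorter. For nearest genes, a summit inside any other annotated gene counted for an snRNA gene only if it also lay inside that snRNA gene. The 65 genes with a ranked peak were 29 for summits inside the gene, 37 for nearest genes, 40 among genes with no identical copy, and 41 to 53 in each replicate alone. The median signal of 24.4 lay between 22.7 and 25.8 apart from each replicate alone, with 16.8 to 18.1. The median summit distance of 51.0 bp was 64.0 bp inside the gene, 106 bp within 500 bp, 64.0 bp for nearest genes and 81.0 bp among genes with no identical copy. Partner genes numbered 1 in the pooled list and 3 at an IDR of 0.05, with no share of all protein-coding genes available for either count. The causes were not tested. Alternatives chosen after seeing the data, without the 2 nested entries or by any overlap with the gene, gave 5.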
